A study of Mus musculus with 8 samples.

Results

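A group of 10 membrane carriers of glucose and amino acids was followed on microarrays of mouse leukaemia stem cells with and without Pik3ca. The 10 genes were Slc2a1, Slc2a3, Slc7a5, Slc3a2, Slc1a5, Slc7a11, Slc38a1, Slc38a2, Slc7a1 and Slc1a4. They were chosen by name, and for each the array row with the highest mean over the 8 arrays was taken, from 19505 genes that had a named row. Each of the 10 had exactly 1 row. The tested samples were 3 KO arrays, labelled Pik3ca-/-, and the comparison samples were 5 WT arrays, labelled WT. All 8 arrays held total RNA of GFP+ granulocyte-macrophage progenitors (GMPs), which were sorted out of bone marrow from transplanted mice carrying MLL-AF9, a fusion oncogene that makes myeloid progenitors leukaemic, so the WT cells were leukaemic too. Which part of Pik3ca was deleted and by what means, the strain and age of the mice, and whether the replicates were separate mice are not stated in the labels. P-values here therefore measure the spread between these arrays, which may be partly technical.

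The product of Pik3ca, p110-alpha, is a catalytic subunit of PI3K, a lipid kinase that acts upstream of AKT and mTORC1. AKT and mTORC1 are known to promote nutrient uptake, partly by moving carriers to the cell surface and partly through the transcription factors HIF1, MYC and ATF4, which act on carrier genes. An array of RNA reads only the transcript level and not the carriers at the surface. Amino acid uptake is linked between carriers: SLC1A5 and the SLC38 family bring in glutamine, and the heteromer of SLC7A5 with SLC3A2 exchanges intracellular amino acids for leucine and other large neutral amino acids. SLC3A2 is also the heavy chain of the cystine carrier SLC7A11.

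All values are deposited log2 values, so a difference of 1 is a 2-fold change, on the reading that the log base is 2. The array medians, taken over all rows including negative controls, lay between 5.26 and 5.51. Medians of the negative control rows alone lay between 4.83 and 5.45. A row above the array median therefore need not hold a detected transcript. WT array 3 stood apart, with a mean correlation across genes of 0.921 with the other arrays, against 0.968 to 0.972 for the other 7 arrays. Differences and list medians that turned in sign or moved by over 1.5 times without it are given both ways. The row of the targeted gene, Pik3ca, was 8.73, 9.31 and 9.40 in the KO arrays, against 9.48, 9.57, 8.41, 9.51 and 9.58 in WT arrays 1 to 5. These groups overlapped through WT array 3, with a difference of -0.16, or -0.39 without that array. With the deleted part unknown the row did not check the labels. Markers of the sorted cells were bright: the mean of 10 GMP and primary granule genes was 14.01 to 14.02 in KO and 13.88 to 14.22 in WT, although Flt3, a receptor gene in that list, was dim at 2.87 to 3.93. The mean of 4 B cell markers was 4.51 to 4.87 in KO and 4.51 to 5.34 in WT. On each array this mean lay below the median of that array. Cd79b, in that list, was however above the array median on all 8 arrays, reaching 8.47 in KO and 9.21 in WT. The other B cell markers lay below the array median on every array.

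Rows of the glucose carrier genes, the glutamine carrier genes, the large neutral amino acid heteromer and the cationic amino acid carrier gene lay above the array median on all 8 arrays. None of them passed the test between the groups. Slc7a5 lay among the negative control rows on WT array 3, where 57.0% of them were dimmer, and 67.1% were dimmer on WT array 5. For Slc7a1 and Slc2a3 this share was also lowest on WT array 3, at 79.9% and 84.3%. Of the 8 transporters bright enough to test, 0 rose and 0 fell in limma at an adjusted p under 0.05, and each of the 8 had an adjusted p of 0.998. Over all 9920 genes tested, 0 were called, which is 0%. At an unadjusted p under 0.05 there were 0 of the 8 transporters, beside 282 of all genes, or 2.84%, and without WT array 3 there were again 0, beside 464 of all genes, or 4.68%. For 0 of the 8 did all KO arrays lie outside the range of the WT arrays, beside 3.09% of all genes, and without WT array 3 the count was again 0, beside 5.55%. Over the 10 transporters the median KO minus WT difference was 0.05, with 7 above 0 and 3 below, where the median of all genes tested was 0.04 and of all genes with a row 0.01. Without WT array 3 the median over the 10 was -8.0e-05, with 5 above 0 and 5 below. The medians of all genes tested and of all genes with a row were then 1.8e-04 and 0.02. The arrays were few: the 95% interval of a difference spanned a factor of 1.63 each way for the median gene, and over the 8 tested transporters it reached down to 0.272-fold and up to 2.95-fold. These are the outermost bounds over the 8, and each gene has its own: the narrowest interval, that of Slc1a5, ran from 0.618-fold to 1.15-fold, and the widest, that of Slc2a3, from 0.272-fold to 1.93-fold.

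**Figure D1:**
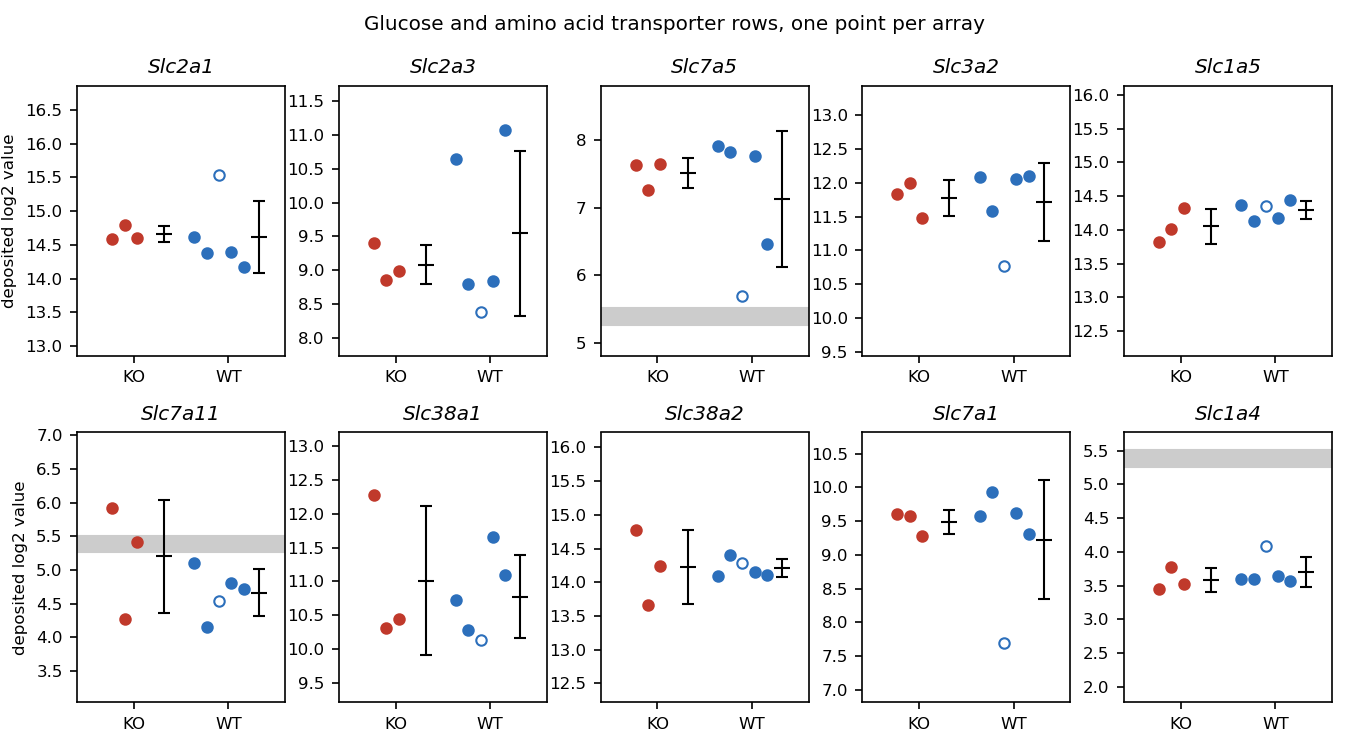
Deposited log2 value of each transporter row on each array, with KO arrays on the left (red) and WT arrays on the right (blue) of each panel; the open circle is WT array 3, the black bar and whiskers are the mean and SD of the group (n = 3 and n = 5), and the grey band is the range of the array medians. Every panel spans the same number of log2 units, the groups overlap in all 10 panels, and Slc7a11 and Slc1a4 lie at or below the grey band on nearly all arrays.

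Among the glucose carriers, Slc2a1 encodes GLUT1, the widely expressed basal glucose transporter. Slc2a1 was 14.58, 14.80 and 14.61 in the KO arrays, against 14.62, 14.38, 15.54, 14.40 and 14.18 in WT arrays 1 to 5. The KO arrays were close together, WT array 3 was the highest of the 8, and the groups overlapped. The KO mean was 14.66 ± 0.12 (SD, n = 3) and the WT mean 14.62 ± 0.53 (SD, n = 5), a difference of 0.04 with a 95% interval of -0.66 to 0.75. Without WT array 3 the Slc2a1 difference was 0.27 with a 95% interval of -0.12 to 0.66, and the exact two-sided permutation test over the 35 splits gave a p of 0.114. In that setting KO arrays 1 and 3 lay just below WT array 1 and above the other WT arrays, and KO array 2 lay above them all. The difference was below 0 when KO array 2, WT array 2, WT array 4 or WT array 5 was left out, down to -0.07.

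Slc2a3 encodes GLUT3, a glucose transporter of high affinity that is abundant in neurons and platelets. Slc2a3 was 9.40, 8.86 and 8.99 in the KO arrays, against 10.64, 8.79, 8.38, 8.84 and 11.08 in WT arrays 1 to 5. WT arrays 1 and 5 were high, and the other WT arrays lay below all KO arrays, so that the KO arrays sat inside a wide WT range. KO arrays averaged 9.08 ± 0.29 (SD, n = 3) and WT arrays 9.55 ± 1.22 (SD, n = 5), with a difference of -0.46 and a 95% interval of -1.88 to 0.95. Its residual SD of 1.01 was larger than that of 93.1% of all genes tested. The difference was -0.75 without WT array 3 and -0.08 without WT array 5. Megakaryocyte and platelet markers were read beside it, since platelets carry this transporter. The mean of the 6 markers with a row was 5.58 to 5.91 in KO, against 9.73 in WT array 1 and 5.48 in WT array 5, and 5.38 to 6.55 in the other WT arrays. The part of platelets in the Slc2a3 values was not tested. In such bulk samples fewer cells of a type and less RNA per cell cannot be told apart.

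The large neutral amino acid carrier is a heteromer of a light chain, LAT1, encoded by Slc7a5, and a heavy chain, 4F2hc or CD98, encoded by Slc3a2. The light chain gene Slc7a5 was 7.63, 7.25 and 7.65 in the KO arrays, against 7.92, 7.82, 5.69, 7.76 and 6.46 in WT arrays 1 to 5. WT arrays 3 and 5 were low and the other WT arrays lay above all KO arrays. Means were 7.51 ± 0.22 (SD, n = 3) for KO and 7.13 ± 1.00 (SD, n = 5) for WT, a difference of 0.38 with a 95% interval of -0.80 to 1.56, and the difference was 0.02 without WT array 3.

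The heavy chain gene Slc3a2 was 11.84, 12.00 and 11.49 in the KO arrays, against 12.09, 11.58, 10.77, 12.06 and 12.11 in WT arrays 1 to 5. It too was lowest in WT array 3, whereas in WT array 5, where the light chain was low, it was the highest of the 8. The KO mean was 11.77 ± 0.26 (SD, n = 3) and the WT mean 11.72 ± 0.58 (SD, n = 5). The difference of 0.05, with a 95% interval of -0.71 to 0.82, turned to -0.18 without WT array 3, to -0.06 without KO array 2, to -0.0011 with quantile normalization and to -0.15 with array weights.

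Slc1a5 encodes ASCT2, a sodium-dependent exchanger that carries glutamine. Slc1a5 was 13.82, 14.02 and 14.32 in the KO arrays, against 14.37, 14.14, 14.36, 14.18 and 14.45 in WT arrays 1 to 5. KO arrays 1 and 2 lay below every WT array and KO array 3 lay within the WT range. This was the steadiest of the tested transporters, with a residual SD of 0.18, larger than that of only 7.30% of genes. KO arrays averaged 14.05 ± 0.26 (SD, n = 3) and WT arrays 14.30 ± 0.13 (SD, n = 5). The difference of -0.25 had a 95% interval of -0.70 to 0.20, an unadjusted limma p of 0.247, and 0.125 in the exact two-sided permutation test, whose smallest possible p over its 56 splits is 0.0179. It stayed below 0 under each alternative run, between -0.38 without KO array 3 and -0.13 without KO array 1. The related gene Slc1a4 encodes ASCT1, a carrier of alanine, serine and cysteine. Its row lay between 3.44 and 3.78 in KO and between 3.57 and 4.10 in WT, above the array median on 0 of 8 arrays, and it was not tested. The Slc1a4 difference was -0.12, and -0.02 without WT array 3.

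The SLC38 genes encode sodium-coupled neutral amino acid transporters, and both members here carry glutamine and alanine. Slc38a1, encoding SNAT1, was 12.28, 10.31 and 10.44 in the KO arrays, against 10.72, 10.27, 10.13, 11.66 and 11.09 in WT arrays 1 to 5. KO array 1 was the highest of the 8, and the other KO arrays lay among the lower WT arrays. Means were 11.01 ± 1.10 (SD, n = 3) for KO and 10.77 ± 0.62 (SD, n = 5) for WT, with a difference of 0.23 and a 95% interval of -0.92 to 1.39. Leaving out KO array 1 gave a Slc38a1 difference of -0.40, leaving out KO array 2 gave 0.59, and leaving out WT array 3 gave 0.07.

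Slc38a2, encoding SNAT2, which is known to be induced when amino acids are scarce, was 14.77, 13.67 and 14.24 in the KO arrays, against 14.09, 14.40, 14.28, 14.15 and 14.11 in WT arrays 1 to 5. The WT arrays were close together, and the KO arrays held the highest and the lowest value of the 8. The KO mean was 14.23 ± 0.55 (SD, n = 3) and the WT mean 14.21 ± 0.13 (SD, n = 5), a difference of 0.02 with a 95% interval of -0.57 to 0.61. It was -0.25 without KO array 1 and 0.30 without KO array 2. Omitting WT array 3 gave 0.04. Both SLC38 genes were thus highest in KO array 1.

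Slc7a1 encodes CAT1, the main carrier of arginine and lysine in many cells. Slc7a1 was 9.60, 9.58 and 9.28 in the KO arrays, against 9.57, 9.93, 7.70, 9.62 and 9.31 in WT arrays 1 to 5. Every array but WT array 3 lay within a narrow band that held both groups. KO arrays averaged 9.49 ± 0.18 (SD, n = 3) and WT arrays 9.23 ± 0.88 (SD, n = 5). The difference of 0.26, with a 95% interval of -0.79 to 1.31, was -0.12 without WT array 3, with a 95% interval of -0.57 to 0.33.

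**Figure D2:**
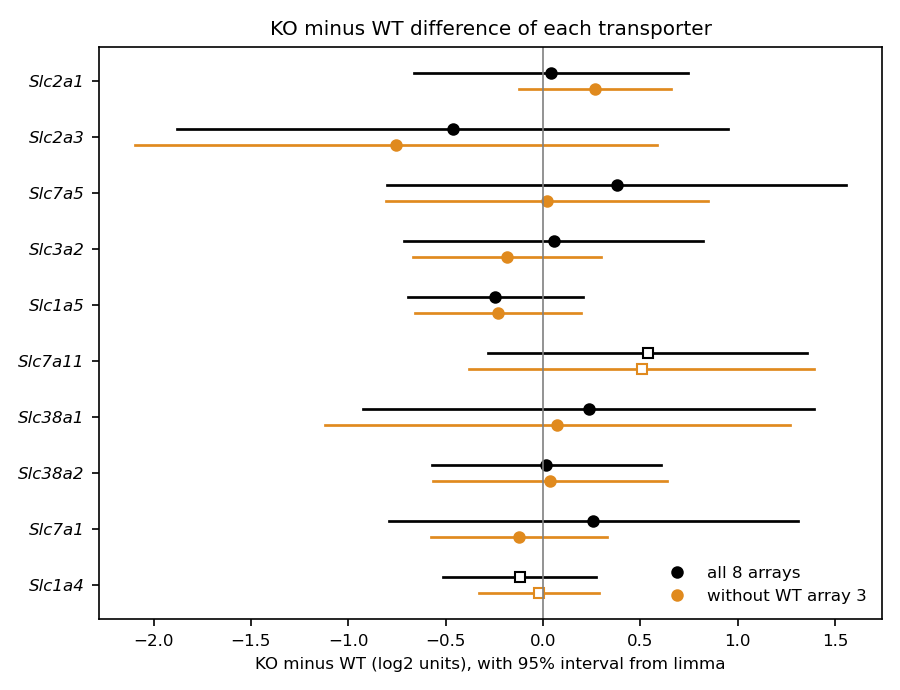
KO minus WT difference of each transporter in log2 units (horizontal axis) with its 95% interval from limma, over all 8 arrays (black) and without WT array 3 (orange); filled circles are tested genes and open squares the dim genes Slc7a11 and Slc1a4, whose intervals come from a fit over all genes with a row. All 20 intervals include 0; the widest are those of Slc2a3, at -1.88 to 0.95 over all arrays.

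Slc7a11 encodes xCT, the light chain that exchanges cystine for glutamate and feeds glutathione synthesis. Slc7a11 was 5.92, 4.27 and 5.41 in the KO arrays, against 5.10, 4.16, 4.55, 4.80 and 4.72 in WT arrays 1 to 5. KO arrays 1 and 3 lay above every WT array, and KO array 2 lay below all but WT array 2. The row was above the array median on 1 of 8 arrays, KO array 1, and was not tested over all genes. Between 36.3% and 61.8% of negative control rows were dimmer than it in KO, and between 24.6% and 49.4% in WT. Its values on all 8 arrays were thus within the range of rows that should carry no signal. Means were 5.20 ± 0.84 (SD, n = 3) for KO and 4.66 ± 0.35 (SD, n = 5) for WT. The difference of 0.54 had a 95% interval of -0.28 to 1.36 in a fit without the filter, and the exact two-sided permutation test gave a p of 0.25. Leaving out KO array 1 gave 0.18 and leaving out KO array 2 gave 1.00.

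Slc7a11 and Slc3a2 encode the 2 chains of the cystine carrier, and only the row of Slc3a2 was bright enough to test. For that reason the 250 bases before the start of each gene are shown. Both are from RefSeq on mouse build GRCm38.p6, read 5′ to 3′ on the gene's own strand, which is the minus strand for both. They lie at chr3:50443614-50443863 for Slc7a11 and chr19:8713898-8714147 for Slc3a2. Capitals mark TGATGNAA, the core of the amino acid response element that ATF4 binds, on either strand.
Slc7a11: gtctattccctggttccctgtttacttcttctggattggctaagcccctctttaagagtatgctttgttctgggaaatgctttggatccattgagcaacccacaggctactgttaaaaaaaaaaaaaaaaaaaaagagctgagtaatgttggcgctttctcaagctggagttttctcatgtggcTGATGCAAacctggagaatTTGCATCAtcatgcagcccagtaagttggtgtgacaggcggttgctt
Slc3a2: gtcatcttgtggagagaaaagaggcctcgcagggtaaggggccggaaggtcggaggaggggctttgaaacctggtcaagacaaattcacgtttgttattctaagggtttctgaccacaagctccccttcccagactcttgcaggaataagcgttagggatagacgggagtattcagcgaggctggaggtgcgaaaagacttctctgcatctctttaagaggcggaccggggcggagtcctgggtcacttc
The Slc7a11 window held 2 matches, 1 on each strand, at 66 to 59 and at 47 to 40 bases before the start, and the Slc3a2 window held 0. The 2 matches do not overlap each other. Over 32851 mouse promoter windows of 250 bases, 3.45% held the motif. Windows were at hand for 6 of the 10 transporters, Slc7a11, Slc2a1, Slc7a1, Slc1a4, Slc38a2 and Slc3a2, with 7 windows in all, as Slc7a1 had 2 starts. Only the Slc7a11 window of these 7 held the motif. TGACNNNGC, the core of the antioxidant response element, was in a window of Slc7a1 and in that of Slc38a2, beside 10.2% of all windows, and CACGTG, the E-box that MYC binds, was in 0 of the 7, beside 6.02%. A match is only a stretch of letters, and nothing here measured binding. The Atf4 row itself, named after its values were seen, was 15.47, 14.95 and 15.25 in the KO arrays, against 15.03, 15.31, 15.94, 15.08 and 14.72 in WT arrays 1 to 5, with overlapping groups and a difference of 0.01, or 0.19 without WT array 3.

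The transporters took very different places on the array. A row's brightness depends on its probes as well as on its transcript, so these ranks place a row among the rows of its array and do not compare amounts of transcript between genes. Slc2a1, Slc1a5 and Slc38a2 were brighter than 94.1% to 98.6% of transcript rows on every array. Slc3a2 ranked at 85.3% to 87.3% in KO and 83.0% to 88.0% in WT, and Slc38a1 at 78.8% to 88.9% in KO and 79.3% to 86.0% in WT. Slc7a1 lay at 74.0% to 75.9% in KO and 68.1% to 77.5% in WT, and Slc2a3 at 71.5% to 75.0% in KO and 71.6% to 83.0% in WT. Slc7a5 ranked lowest of the 8 tested transporters, at 63.7% to 66.2% in KO and 53.9% to 67.1% in WT. In the KO arrays 80.5% to 86.8% of negative control rows were dimmer than Slc7a5, against 86.8%, 81.2%, 57.0%, 85.6% and 67.1% in WT arrays 1 to 5. WT arrays 1, 2 and 4 thus lay within the KO range, and WT arrays 3 and 5 lay below it, nearer to the middle of the negative controls. Slc1a4 was at 10.2% to 19.8% in KO and 14.7% to 22.8% in WT, inside the range of the negative controls.

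**Figure D3:**
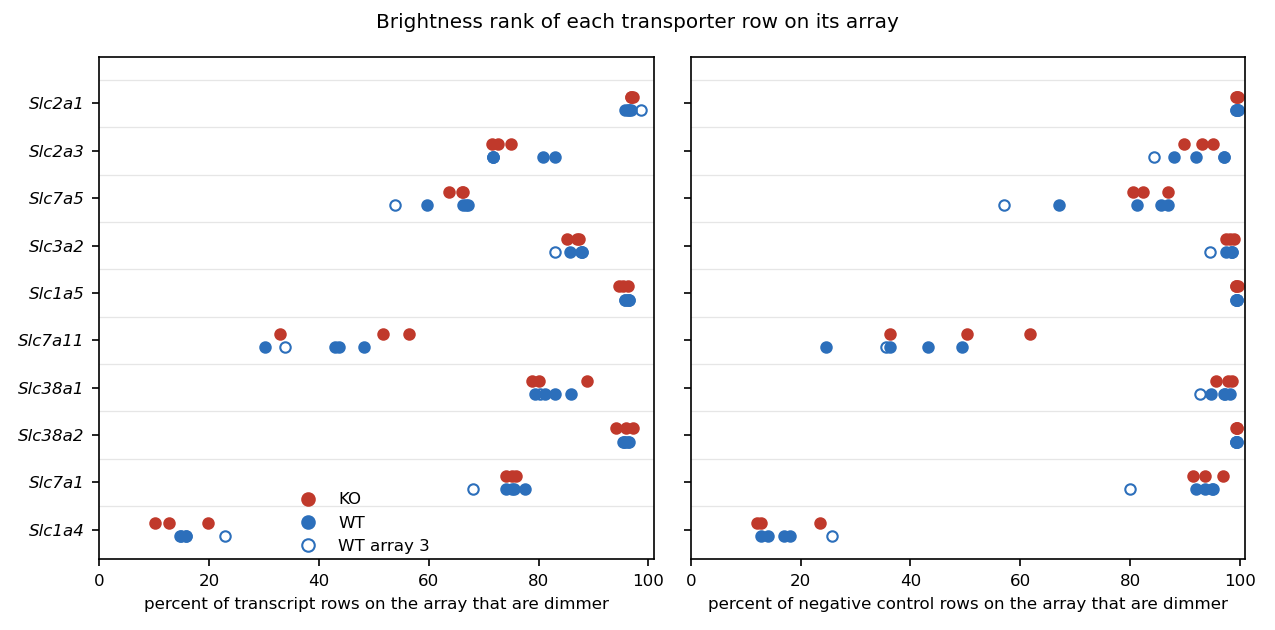
Share of transcript rows (left) and of negative control rows (right) on the same array that were dimmer than each transporter row, in percent, with KO arrays in red above WT arrays in blue and WT array 3 as an open circle. Slc2a1, Slc1a5 and Slc38a2 sit above 94% of transcript rows on every array, while Slc1a4 lies within the negative controls and Slc7a11 crosses their middle.

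WT array 3 held extreme values for most of the transporters. For 5 of the 10 transporters, Slc2a3, Slc7a5, Slc3a2, Slc38a1 and Slc7a1, the lowest value was on WT array 3, and for Slc2a1 and Slc1a4 the highest was there. These counts were not made over all genes, so they do not set the transporters apart from other genes on that array. Against the mean of the other WT arrays, WT array 3 was lower by over 1 unit for 4 transporters, with differences of -1.91 for Slc7a1, -1.80 for Slc7a5, -1.45 for Slc2a3 and -1.19 for Slc3a2, and higher by 1.14 for Slc2a1. Over all genes tested, 22.5% were lower and 9.77% higher by over 1 unit on that array. The shift of Slc2a1 was above that of 92.6% of genes. Slc1a5 and Slc38a2 differed from the other WT arrays by 0.07 and 0.10. The cause of these shifts was not tested.

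**Figure D4:**
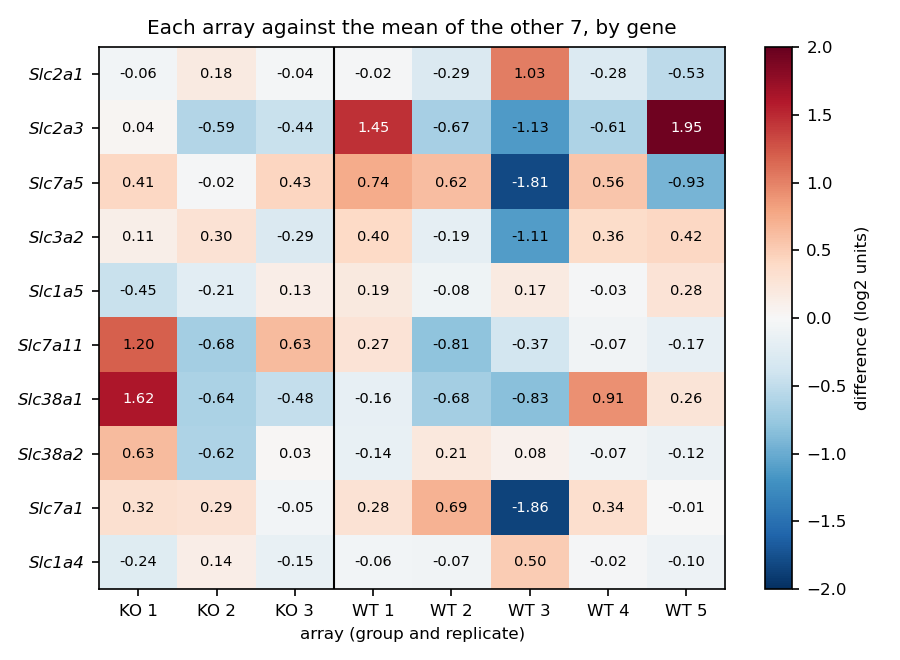
Difference, in log2 units, of each array (columns, KO arrays left of WT arrays) from the mean of the other 7 arrays for each transporter (rows), red where the array is higher and blue where it is lower. WT array 3 holds the largest negative values, -1.86 for Slc7a1 and -1.81 for Slc7a5, and the largest positive ones are 1.95 for Slc2a3 on WT array 5 and 1.62 for Slc38a1 on KO array 1.

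The genes whose values went most closely with each tested transporter were taken over the 7 arrays other than WT array 3, as the 2 highest Pearson r among all genes tested. With 7 arrays and 9920 genes very high values can arise for any gene, so r is given as a description only. Slc2a1 went most closely with Ppp1r3f (r of 0.97) and Slc2a3 with Gpr34 (r of 0.98). Slc7a5 went with Spi1 (r of 0.96), the gene of the myeloid transcription factor PU.1, and Slc3a2 with Fbxo46 (r of 0.99) and Fzd5 (r of 0.97). Slc1a5 went with Map3k14 (r of 0.98), Slc38a1 with Atp13a3 (r of 0.97), Slc38a2 with Aggf1 (r of 0.98) and Slc7a1 with Rarg (r of 0.98). With WT array 3 included, r was 0.97 for Slc3a2 with Fzd5 and 0.98 for Slc38a1 with Atp13a3. It was -0.02 for Slc7a5 with Spi1 and -0.50 for Slc7a1 with Rarg. For the other named pairs it was 0.27 for Slc2a1 with Ppp1r3f, 0.85 for Slc2a3 with Gpr34 and 0.59 for Slc3a2 with Fbxo46. Slc1a5 with Map3k14 gave 0.47 and Slc38a2 with Aggf1 gave 0.51. None of the 8 tested transporters was among the 2 genes closest to another, and the dim Slc7a11 and Slc1a4 were not in the search. With only 2 places among 9920 genes, this does not tell whether the transporters went together.

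Other genes of nutrient uptake, in 5 lists, gave no call either. Of 77 such genes with a row, 47 were tested, 0 passed over all genes, and 2 had all KO arrays outside the WT range. An unadjusted limma p under 0.05 was found for 4 of the 47, or 8.51%, beside 2.84% of all genes. Without WT array 3 it was also found for 4, beside 4.68%, but not for the same 4. Asns, with an unadjusted limma p of 0.0535, dropped out there and Slc38a6 entered, with 0.0160. The Slc38a6 difference was -0.38, and -1.03 without WT array 3. Both counts of 4 are a description, with no test of the share. Of 26 further amino acid carriers 13 were tested, and the median difference over the 26 was 0.05, or -0.08 without WT array 3. Over the 13 tested it was -0.07, with 5 above 0, and -0.21 without WT array 3. Slc36a1, which encodes PAT1, a proton-coupled amino acid carrier of lysosomes, was 12.12, 11.27 and 11.70 in the KO arrays, against 12.42, 12.44, 12.99, 12.35 and 12.40 in WT arrays 1 to 5. All 3 KO arrays lay below all 5 WT arrays, with a difference of -0.82, a 95% interval of -1.40 to -0.24 and an adjusted limma p of 0.998. The exact two-sided permutation p of 0.0179, unadjusted, is the smallest that 56 splits can give, and the gene was picked for its small p. Without WT array 3 the Slc36a1 difference was -0.70. Slc38a7, encoding a lysosomal glutamine carrier, differed by -0.44, and Slc6a9, encoding a glycine carrier, by 0.24, and by 0.11 without WT array 3, with overlapping groups for both.

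Few other hexose carriers were bright. Of 11 further hexose carriers, with a median difference of 0.05, only 1 was tested, Slc2a9, known mainly as a urate transporter gene, with a KO mean of 6.54 ± 1.13 (SD, n = 3) and a WT mean of 5.39 ± 0.79 (SD, n = 5). Its difference of 1.15 had a 95% interval of -0.15 to 2.45, the groups overlapped, and the row was above the array median on 5 of 8 arrays. Lactate and pyruvate carriers and their chaperones had 7 tested genes with a median difference of -0.03, or -0.09 without WT array 3. Slc16a7, encoding the monocarboxylate carrier MCT2, was 7.02, 7.28 and 5.56 in the KO arrays, against 7.03, 7.92, 7.83, 8.29 and 8.38 in WT arrays 1 to 5. The difference was -1.27, with an unadjusted limma p of 0.0184 and an adjusted p of 0.998, and the groups overlapped between KO array 2 and WT array 1. Mpc1, encoding a subunit of the mitochondrial pyruvate carrier, differed by 0.57 and Slc16a6, of the same family as Slc16a7, by -0.18, and without WT array 3 the Mpc1 difference was 0.39.

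Regulators of the carriers and the enzymes that take up their cargo were mixed. Of 19 regulators 16 were tested and 0 passed, with a median difference of 0.10 over the 19 and 0.06 over the 16, the second of which was 0.09 without WT array 3. Eif2ak4, which encodes GCN2, the kinase that senses uncharged tRNA, differed by 1.03, and by 0.66 without WT array 3. Nedd4l, encoding a ubiquitin ligase, differed by -0.40 and Arrdc3, encoding an arrestin-like adaptor, by 0.62, and by 0.38 without WT array 3. Of the 18 enzymes listed 14 had a row and 10 were tested, with a median difference of 0.17 over the 14. Over the 10 tested it was 0.41, with 8 above 0, and 0.26 without WT array 3. Hk2 encodes a hexokinase, an enzyme that phosphorylates glucose after entry. Its row was 12.02, 11.93 and 11.69 in the KO arrays, against 12.60, 13.04, 12.28, 12.78 and 12.44 in WT arrays 1 to 5. The groups did not overlap, and the Hk2 difference was -0.75 with an adjusted p of 0.998 in limma. For the hexokinase genes Hk1 and Hk3 of the same list the groups overlapped. Hk1 differed by -0.52 and Hk3 by 0.10, or -0.15 without WT array 3. Asns, encoding asparagine synthetase, differed by 0.70, with an unadjusted limma p of 0.0416, or 0.0535 without WT array 3. Cth, encoding an enzyme that makes cysteine, differed by 0.83. Over these 5 lists the groups did not overlap for 4.26% of tested genes, close to the 3.09% of all genes.

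**Figure D5:**
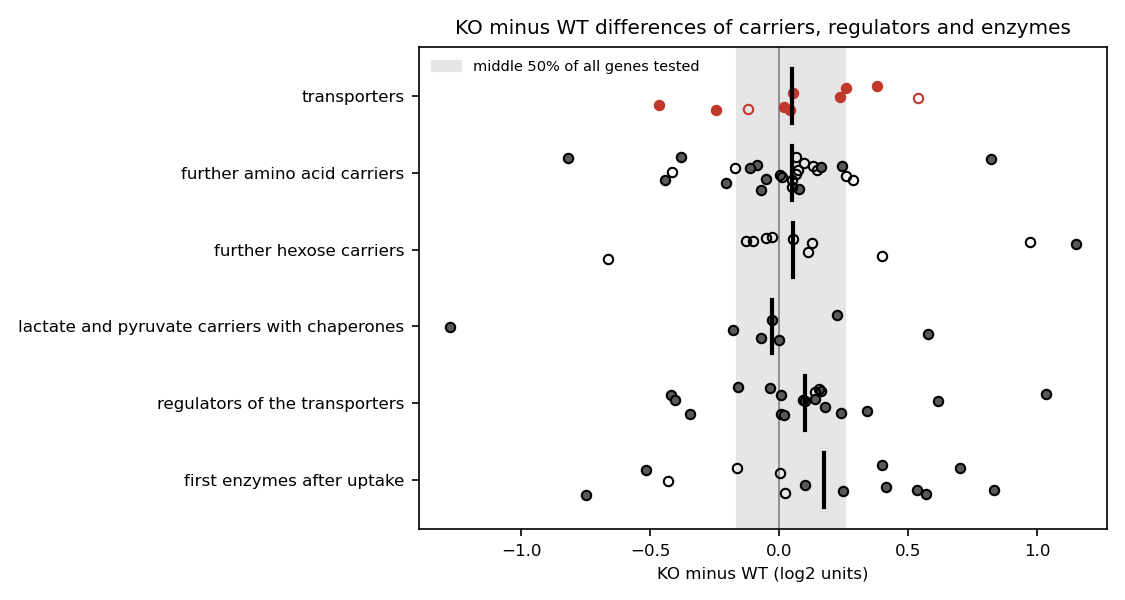
KO minus WT difference in log2 units (horizontal axis) of each gene in the transporter list (red) and in 5 further lists (grey); filled points were tested, open points were too dim to test, the black bar is the median over the filled and open points of the list, and the shaded band holds the middle 50% of all genes tested, from -0.16 to 0.26. The medians run from -0.03 for lactate and pyruvate carriers to 0.17 for the enzymes, and 0 genes passed in any list.

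Markers of other cells in the sort were read beside these values. The mean of 6 mast cell, basophil and eosinophil markers was 6.86 to 6.94 in KO and 7.23 to 7.69 in WT, without overlap. For 0 of the 5 tested ones did all KO arrays lie outside the WT range, beside 3.09% of all genes. Of the 6 differences 5 were below 0 and 1 above, that of Hdc. Hdc was 10.65, 9.71 and 7.60 in the KO arrays, against 9.13, 9.16, 7.17, 8.73 and 8.63 in WT arrays 1 to 5. Prg2 was 11.98 and 12.84 in WT arrays 3 and 4. The mean of 6 monocyte markers was 9.14 to 9.87 in KO and 9.64 to 10.59 in WT. All 6 differences were below 0, with a median of -0.36, and 0 passed in limma. For 2 of the 6, Irf8 and Ms4a6c, all KO arrays lay outside the WT range, below it, beside 3.09% of all genes. Irf8 was 7.23 to 8.71 in KO and 8.90 to 9.43 in WT. Ms4a6c was 7.76 to 8.20 in KO and 8.58 to 9.64 in WT. Mature neutrophil markers ranged more widely in KO, at 12.82 to 14.58, than in WT, at 13.36 to 14.24. The means of 5 erythroid markers were 5.98 to 6.12 in KO and 5.79 to 6.99 in WT, those of 5 T and NK cell markers 6.07 to 6.19 in KO and 5.80 to 6.79 in WT, and those of 5 stromal and endothelial markers 5.51 to 5.63 in KO and 5.39 to 5.79 in WT. Single bright genes raised the last 2: Nkg7 was 11.54 to 13.43 over the 8 arrays and Pecam1 9.70 to 11.40. The other T and NK cell markers lay between 3.58 and 6.03, and the other stromal and endothelial markers between 2.95 and 5.61. The part of these cells in the transporter values was not tested.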

How the data were processed

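RNA of sorted GFP+ GMPs was hybridised on 8 Affymetrix mouse arrays, 3 KO and 5 WT, with groups and replicate numbers read from the titles. A single table of log2 values was deposited, with 28846 rows and a column per array. How it was normalized, with which software and on which build, is not given in the sources used, and the log base was read from the range of the values, 1.89 to 18.65. Names came from the platform annotation, matched by row ID, which gave 19572 of 22206 transcript rows 1 symbol and 2634 none. The design text names the Mouse Transcriptome Assay, whereas this annotation is of a different Affymetrix mouse array, so the array type is unsettled and each gene name rests on the row ID.

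A gene was tested if its row lay above the array median on at least 3 arrays, which left 9920 genes. KO was compared with WT by limma 3.58.1 in R 4.3.3 (lmFit, eBayes, two-sided), with Benjamini-Hochberg adjustment over all genes tested and a threshold of 0.05. Single genes also had an exact permutation test of the absolute difference of means. The code was tested on simulated data. The members and lists were chosen with earlier results of these data known. From each further list the 3 tested genes with the smallest unadjusted p were named, and of the 2 genes most like each transporter at least the closest. Slc38a6 was also named, for its small p without WT array 3, and Hk1 and Hk3 were named beside Hk2. No arrays were duplicates: the closest pair differed by 0.574 (root mean square over genes tested). Figures used matplotlib 3.10.9.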

Additional observations from a re-analysis of the deposited data

Results flagged for a closer look

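For each of the 10 transporters, the highest and the lowest of the 5 WT arrays were set against the next one, and a gap that took an unusually large share of the group's range was picked out. Chance gives this in about 1 of 20 groups. It was found for 2 of 10, both on WT array 3. Slc7a1 was 7.70 there, against 9.31 to 9.93 in the other WT arrays, and Slc1a4, a dim row, was 4.10, against 3.57 to 3.64. The cause was not tested.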

How the results depend on the processing

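Over 17 alternatives (each of the 8 arrays left out in turn, the replicate block, array weights, a trended and robust eBayes, dim values raised to the 25th percentile, centring on medians, quantile normalization, the most variable row per gene, and the filter on dim rows dropped or tightened to the 60th percentile on 5 arrays), limma called 0 genes each time, with a smallest adjusted p of 0.264 over all genes and 0.936 among the tested transporters. Of 170 differences of single transporters, 154 kept their sign or, for the 2 dim genes, moved by less than the spread between arrays, and 16 turned in sign. With arrays left out, Slc2a1 ran from -0.070 to 0.27, Slc3a2 from -0.18 to 0.20, Slc38a1 from -0.40 to 0.59, Slc38a2 from -0.25 to 0.30 and Slc7a1 from -0.12 to 0.43. Slc3a2 was -0.0011 with quantile normalization, and array weights gave -0.15 for Slc3a2 and -0.060 for Slc7a1. With the replicate block, Slc2a1 was -0.18 and Slc38a2 -0.033. Whether the numbers pair the samples is not settled. The correlation of deviations from the group means was 0.02 for number 1, -0.02 for number 2 and 0.14 for number 3. KO array 3 went best with its own number, but KO array 1 went best with WT array 2 (0.14) and KO array 2 with WT array 4 (0.11). These correlations are weak and the WT mean includes WT array 3, so they cannot decide it. The cause of the turned signs was not tested. The median over the 10 transporters ran from -0.01 to 0.13. Dim signal limits Slc7a11 and Slc1a4. For the tested genes the spread on WT array 3 adds to the error: the median standard error over all genes tested was 0.240 without it, against 0.311 with it, and for Slc7a1 it was 0.196, against 0.464.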
